A study of Mus musculus with 1 sample.

Results

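The ribosomal protein genes of the mouse were followed across the cell types of the pancreas in 1 single-cell library. Members were all gene symbols of the deposited feature list that begin with Rpl or Rps and a digit, together with Rplp0, Rplp1, Rplp2 and Rpsa, without pseudogene symbols and without the Rps6k kinases. The rule found 86 of 32285 listed features. By role they were 43 proteins of the large subunit, 31 of the small subunit, 3 proteins of the stalk (Rplp0, Rplp1 and Rplp2) and 7 close copies of other members (Rpl22l1, Rps27l, Rps27rt, Rpl36al, Rpl39l, Rpl3l and Rpl10l). The other 2, Rps19bp1 and Rpl7l1, match by symbol and are not parts of the mature cytoplasmic ribosome. Of the 86 members, 85 had a UMI (unique molecular identifier, marking 1 captured transcript) in the cells kept, and Rpl10l had none.

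The library was a 3′ droplet library made from pancreata pooled from 5 to 6 mice at an age of 2 weeks, with the genotype Scap f/f. These mice carry a floxed Scap gene and no Cre recombinase, so that Scap is intact, and they served as the control of a study on the loss of SCAP, the escort protein of the lipid-controlling SREBP transcription factors. The library was labelled wildtype as well as Scap f/f. No second genotype and no replicate library was analysed here, so every comparison is between cell classes of the same pool, no test between animals was possible, and all 95% intervals cover counting error only.

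The ribosome is built from ribosomal RNA and a fixed set of ribosomal proteins in constant proportion. Most of these proteins are encoded by a single active gene whose mRNA starts with a run of pyrimidines at its 5′ end, the TOP element, through which translation of the whole set is tuned to growth signals. A few have a paralogous gene for a near-identical protein, and the share of such a paralog can differ between tissues. Acinar cells of the pancreas are known for a very high rate of protein synthesis, directed to digestive enzymes.

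The pair with the largest difference between cell classes was Rps27 and its paralog Rps27l, which both encode the zinc finger protein eS27 of the small subunit. Rps27 lies on the minus strand of chromosome 3 (start 90212522, end 90213651) and Rps27l on the plus strand of chromosome 9 (start 66946086, end 66949516) of GRCm38. Their coding sequences have the same length of 255 bases and are printed here, from GENCODE M21, because they show that the transcripts of the pair can be told apart. Capitals mark the 61 bases that differ.
Rps27: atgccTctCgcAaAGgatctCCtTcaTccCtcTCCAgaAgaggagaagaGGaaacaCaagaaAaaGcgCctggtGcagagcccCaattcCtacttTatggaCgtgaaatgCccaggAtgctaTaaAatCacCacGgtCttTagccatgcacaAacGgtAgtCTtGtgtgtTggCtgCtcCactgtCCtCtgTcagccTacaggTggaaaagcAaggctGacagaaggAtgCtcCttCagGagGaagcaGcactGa
Rps27l: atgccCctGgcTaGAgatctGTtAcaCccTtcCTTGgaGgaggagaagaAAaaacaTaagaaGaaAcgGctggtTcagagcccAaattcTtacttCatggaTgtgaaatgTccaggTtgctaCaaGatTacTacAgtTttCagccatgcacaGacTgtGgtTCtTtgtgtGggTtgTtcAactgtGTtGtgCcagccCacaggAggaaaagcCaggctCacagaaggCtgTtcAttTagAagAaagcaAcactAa
The sequences were 76.1% identical in bases. Over the 84 codons before the stop and the stop itself, 54 codons differed in their bases and only 3 encoded another amino acid. The 2 genes thus encode nearly the same protein from transcripts that differ at many bases. The 3′ ends, which a 3′ library reads, were not compared here.

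Another pair is shown because its rare paralog had its highest level in T cells. Rpl39, a small protein of the large subunit that lines the exit tunnel, lies on the minus strand of chromosome X (start 37082520, end 37085402), and Rpl39l on the plus strand of chromosome 16 (start 10170226, end 10174911). Capitals again mark the differing bases, 23 of 156.
Rpl39: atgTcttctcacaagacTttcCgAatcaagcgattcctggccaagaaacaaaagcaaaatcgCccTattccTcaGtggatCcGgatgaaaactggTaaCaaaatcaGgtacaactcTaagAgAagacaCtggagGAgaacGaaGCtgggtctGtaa
Rpl39l: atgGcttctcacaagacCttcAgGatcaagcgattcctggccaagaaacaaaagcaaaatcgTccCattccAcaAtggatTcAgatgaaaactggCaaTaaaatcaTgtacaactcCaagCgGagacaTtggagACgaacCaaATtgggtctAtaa
Here too only 3 of 51 amino acids differed, at 85.3% identical bases.

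The start sites were compared over a stretch of 30 bases, 15 before and 15 after the start, from the RefSeq promoters of GRCm38.p6. Capitals mark the letters CTTTCC, a pyrimidine run of the kind found at TOP starts.
Rps27, chromosome 3, minus strand: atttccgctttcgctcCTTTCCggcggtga
Rps27rt, chromosome 9, minus strand: agaacttatcccttgCTTTCCggcggtgac
Rps27l, chromosome 9, plus strand: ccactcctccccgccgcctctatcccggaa
Rpl39l, chromosome 16, plus strand: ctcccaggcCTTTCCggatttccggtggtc
Rpl39, chromosome X, minus strand: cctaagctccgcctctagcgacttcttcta
The letters stood at or near the annotated start of Rps27, of its retroposed copy Rps27rt and of Rpl39l, and were not in this window of Rps27l or of Rpl39, the abundant partner of Rpl39l. The Rpl39 window, bases 37085208 to 37085237, does not hold the GENCODE start of this minus-strand gene, at 37085402. A window at that start was not compared. Windows without these letters can still hold another pyrimidine run, such as cttcttct after the RefSeq start of Rpl39. The windows printed are those of the Rps27 and Rpl39 pairs and of Rps27rt, and not a sample of the members. The letters were also absent from this stretch in another Rps27l entry and in those of Rpl22 and Rpl22l1. Of the 86 members, 66 had a promoter entry, with 78 entries in all. CTTTCC on the strand of the gene lay within 10 bases of the start in 10 of these 78 (12.8%), against 0.837% of all 32851 promoters. CTTTCC on either strand, anywhere in the 300 bases, was in 51.3% of member promoters and in 26.6% of all. CCGGAAG, the letters of an ETS factor motif, was in 34.6% against 8.86%, and TATAAA in 8.97% against 13.6%, both counted on either strand. These are matches of letters, described without a test.

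Kept were 10947 of 11789 barcodes, those above 800 UMIs and below 100000 whose mitochondrial part was less than 15%, with 49202966 UMIs and a median of 2650 per cell. Members gave 6574768 of them, 13.4% of all UMIs. Digestive enzyme transcripts took 12.1% of all UMIs, chiefly from acinar cells, and levels were therefore set per UMIs outside a fixed list of these enzymes, on which members were 15.2%. Cells were sorted into classes by gates on marker genes that hold no ribosomal protein. In the 10 classes of at least 50 cells, each class expressed every marker of its own list. Every list was highest in its own class, which the gates fix because they use the same markers, so that this is a description and no independent check. Duct markers were at 7983 CPM (UMIs per 1000000, here of all UMIs) in the duct class and 5144 in the acinar class, and the duct class held 8.23% enzyme UMIs. Fibroblast markers were also high in mesothelial, mural and Schwann cells, at 30305, 21267 and 15339 CPM against 54846 in fibroblasts. Of the kept cells 764 passed no gate and 737 passed several, beyond the exceptions given with the processing, and were left out of the classes. Endocrine cells, macrophages and neutrophils had 9, 22 and 18 cells and were not compared.

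Lymphocytes devoted the largest part of their transcripts to ribosomal proteins. Members were 28.0% of the UMIs outside enzymes in 897 T cells (95% interval 27.9 to 28.1) and 22.8% in 360 B cells (22.7 to 22.9). Acinar cells followed at 15.7% (988 cells) and fibroblasts at 14.9% (5668 cells). Duct cells were at 12.8% (106 cells), mesothelial cells at 12.7% (515 cells) and endothelial cells at 12.3% (179 cells), values close to each other. Schwann cells at 10.8% (64 cells) and mural cells, the pericytes and smooth muscle of vessels, at 10.2% (199 cells) were the lowest besides erythroid cells on this denominator. Each step in this order was larger than the counting error of the sums. The smallest step was from duct to mesothelial cells, a ratio of 1.01 (1.00 to 1.02).

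The spread between cells of a class was far wider than these intervals. The middle cells of the T cell class, from the 25th to the 75th percentile, ranged from 24.5% to 32.7%, and those of the B cell class from 18.1% to 26.2%. Those of fibroblasts ranged from 12.7% to 17.7% and those of acinar cells from 14.6% to 21.3%, so that both held the values from 14.6% to 17.7%. With all UMIs in the denominator the order changed. The acinar share was then 9.23%, below fibroblasts (14.8%) and also below Schwann (10.7%) and mural cells (10.1%), and duct cells at 11.8% were below mesothelial (12.6%) and endothelial cells (12.1%).

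**Figure D1:**
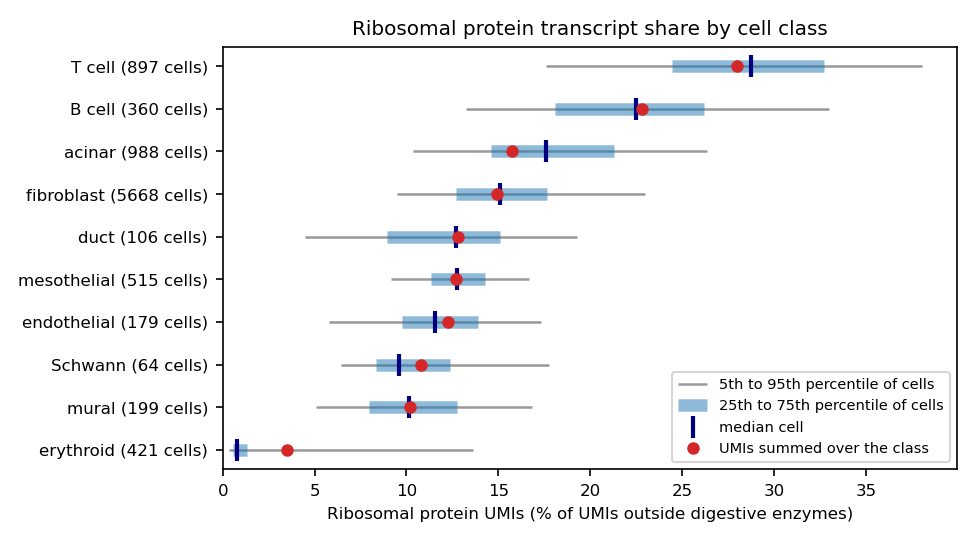
Ribosomal protein UMIs as a percentage of the UMIs outside digestive enzymes (horizontal axis) in 10 marker-gated cell classes, with the sum over the class as a red point, the median cell as a dark tick and the percentiles of cells as bars. T cells and B cells stand to the right of all other classes, at 28.0% and 22.8% of summed UMIs, and erythroid cells to the far left.

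Erythroid cells gave the lowest share, 3.48% of 421 cells' UMIs outside enzymes. Globin transcripts made up 76.3% of that denominator, and without them members were 14.7%, close to fibroblasts. The class was not uniform. In 43 cells with 10 to 50% globin, members were 20.4% of the UMIs outside enzymes and globin, while in 147 cells with 50 to 90% globin and 231 cells with at least 90% they were 8.37% and 9.32%. The 43 cells with the least globin gave 18376 of the 25786 member UMIs of the class, and its median cell was at 0.764% members.

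Both subunits took similar parts in every class. Symbols that begin with Rps gave between 43.7% and 47.8% of member UMIs. Among single members, Rps29, a small zinc-binding protein of the small subunit, had the most UMIs (249138, 3.79% of member UMIs), followed by Rpl41 (199656), Rpl37a (188096) and Rplp1 (165864). Fewest were found for Rpl10l (0), Rpl3l (14), Rpl39l (64), Rps19bp1 (1288) and Rpl7l1 (1755). Levels of different genes in a 3′ library also depend on how well each 3′ end is captured and on reads shared with pseudogenes, and were not compared with protein.

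Rps27 and Rps27l were the pair whose balance differed most. In acinar cells Rps27 stood at 1402 CPM (from here on, per 1000000 UMIs of the class outside enzymes, with a 95% interval of 1375 to 1429) and Rps27l at 1242 CPM (1216 to 1268), so that the paralog gave 47.0% of the pair (46.3 to 47.7). In fibroblasts Rps27 stood at 3118 CPM and Rps27l at 345 CPM, and the paralog gave 9.97% (9.74 to 10.2). The acinar class was thus the only one of 10 in which both transcripts were at nearly equal level.

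T cells and B cells lay at the other end. Rps27 reached 7658 CPM in T cells and 7167 CPM in B cells, its highest levels, while Rps27l was at 295 and 253 CPM, and the paralog gave 3.71% (3.43 to 4.0) and 3.41% (2.93 to 3.93) of the pair. The other classes ranged in between: 10.8% in mesothelial cells, 11.4% in endothelial cells, 13.9% in erythroid cells, 15.8% in mural cells, 18.7% in duct cells and 19.0% in Schwann cells, the last from 81 UMIs of Rps27l. The intervals of the T cell and B cell shares overlapped, as did those of neighbours from mesothelial to mural cells and those of duct and Schwann cells.

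In every range of depth and of enzyme content, the acinar paralog share was above the undivided share of each other class. Duct and Schwann cells, the nearest classes, were not divided by depth or enzyme content. From cells of 1500 to 2500 UMIs to cells over 10000 UMIs, the paralog gave 43.0% to 48.0% of the pair, and 43 cells of 800 to 1500 UMIs gave 31.3% (23.9 to 39.5). Acinar cells with 20 to 35% enzyme UMIs gave 38.8% and those with at least 50% gave 48.3%. Acinar cells with little of the nuclear RNA Malat1 and those with more gave 48.3% and 45.9%.

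In fibroblasts the paralog share moved with enzyme transcripts, the products of acinar cells. It was 9.75% (9.52 to 9.99) in 4757 fibroblasts with under 1% enzyme UMIs, 10.8% in 740 with 1 to 5% and 16.7% (14.8 to 18.7) in 171 with 5 to 20%. How far acinar RNA carried over into other cells adds to their Rps27l was not tested. Within lymphocytes, the paralog gave 8.26% of the pair in 85 T cells that passed a gate of proliferation markers and 3.01% in the 812 others. The corresponding B cell values were 7.86% in 33 cells and 2.61% in 327 cells. The proliferating lymphocytes were also deeper, with medians of 3742 and 3073 UMIs against 1706 and 1404. Their Rps27 was lower (5089 against 8259 CPM in T cells) and their Rps27l higher (458 against 256 CPM in T cells and 452 against 205 CPM in B cells). In T cells the paralog share also rose with depth, from 2.5% at 800 to 1500 UMIs to 5.83% (4.99 to 6.77) at 5000 to 10000. At 2500 to 5000 UMIs, the range of the median proliferating T cell, it was 3.26% (2.81 to 3.77).

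Rps27rt, the retroposed copy on chromosome 9, was at 41.2 CPM in acinar cells, 41.7 CPM in fibroblasts and 93.2 CPM in T cells. Its share beside Rps27 stayed between 1.04% and 2.86% in all classes and was highest in acinar cells, where Rps27 was low. How the counting divided reads between it and Rps27 is not given in the sources used here.

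**Figure D2:**
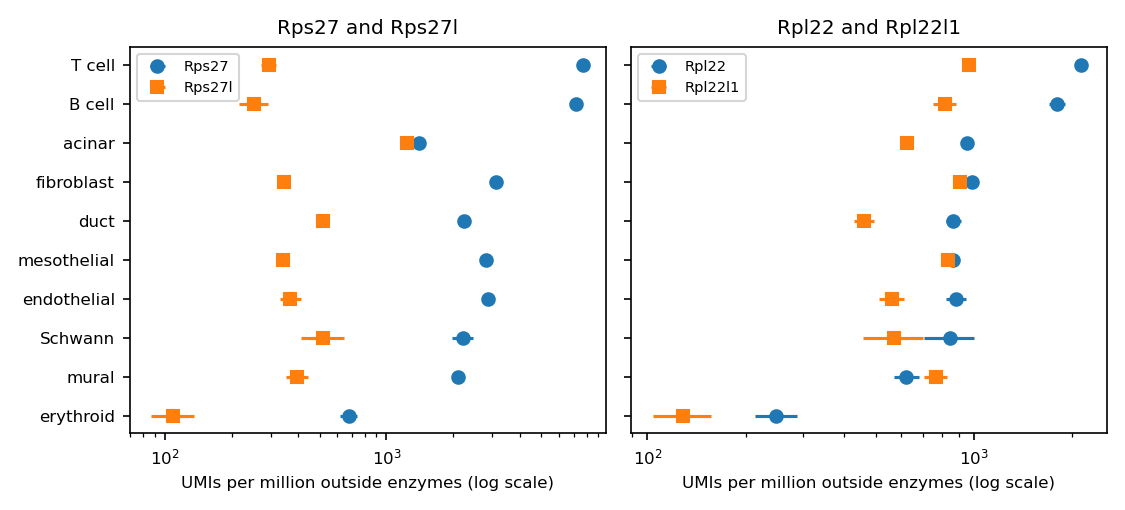
Levels of Rps27 with Rps27l (left) and of Rpl22 with Rpl22l1 (right) in UMIs per 1000000 UMIs outside enzymes, on a log axis, for 10 cell classes on the vertical axis. Points are sums over a class and bars are 95% Poisson intervals of the counts. Rps27 and Rps27l nearly meet in acinar cells, at 1402 and 1242, and lie farthest apart in lymphocytes.

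Rpl22, an RNA-binding protein of the large subunit known for its part in lymphocyte development, and its paralog Rpl22l1 had another pattern. Rpl22l1 gave 55.1% (52.1 to 58.1) of the pair in mural cells, 49.3% in mesothelial cells and 47.9% in fibroblasts. It gave 39.6% in acinar cells, 38.9% in endothelial cells, 34.8% in duct cells, 31.1% (30.0 to 32.2) in T cells and 31.2% in B cells. Schwann cells were at 40.3% and erythroid cells at 34.1%, from 89 and 95 UMIs of Rpl22l1.

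In level, Rpl22l1 differed little between T cells (963 CPM) and fibroblasts (908 CPM), whereas Rpl22 was 2133 against 988 CPM. The share of Rpl22l1 also moved with depth. In fibroblasts it went from 59.2% in cells of 800 to 1500 UMIs, through 54.5%, 47.2% and 42.3%, to 41.0% in cells over 10000 UMIs, and in T cells it was 36.1% in the shallowest range, 27.6% at 2500 to 5000 UMIs and 30.5% at 5000 to 10000. At matched depth of 1500 to 2500 UMIs the values were 54.5% in fibroblasts, 55.9% in mesothelial cells, 45.5% in acinar cells and 32.0% in T cells.

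The remaining pairs differed less or had few counts. Rpl36al, a copy of Rpl36a outside the X chromosome, gave between 27.7% of the pair in fibroblasts and 36.9% in Schwann cells. The Schwann value came from 62 UMIs of Rpl36al, with an interval of 29.6 to 44.7. Acinar cells were at 34.9% and T cells at 33.8%. Rpl39l, of which sequence was shown above, had 64 UMIs in all, of which 32 were in T cells (14.6 CPM, 9.95 to 20.5), 10 in fibroblasts (0.513 CPM, 0.246 to 0.943), 5 in acinar cells and 1 each in duct, mesothelial and B cells. In T cells 14 of the 32 were in the 85 proliferating cells (33.6 against 10.1 CPM), and in fibroblasts 5 of 10 were in 195 proliferating cells. Even there Rpl39l was 0.6% of its pair.

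Rpl39l had no UMI in mural, endothelial, Schwann and erythroid cells, where 3 counts would be 3.81, 3.37, 19.2 and 4.05 CPM, so that a level as in T cells was within the limit in Schwann cells. Rpl3l, known as a muscle form of Rpl3, had 14 UMIs in all and at most 4 in a class. Rpl10l, known from the testis, had none beside 23764 UMIs of Rpl10 in fibroblasts, which allows up to 0.154 CPM. Rpl7l1, which acts in ribosome assembly, was at 56.4 CPM in acinar cells, 34.97 CPM in fibroblasts and 49.6 CPM in T cells.

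Across all members, most held a similar share of the set from class to class, which is described here without a comparison with other gene sets. The share of each member among the summed members was followed over the 10 classes in the 80 members that had at least 10 UMIs in each of them. Its coefficient of variation had a median of 0.141, and 68 of 80 members were under 0.25. Steadiest were Rpl36 (0.0376), Rps23 (0.0443), Rps27a (0.0502), which carries ubiquitin fused to a small subunit protein, Rps2 (0.0558) and Rpl8 (0.0579). Counting error adds to this variation, and the Schwann and erythroid classes held only 16869 and 25786 member UMIs.

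The 8 most variable members were Rps27l (0.585), Rpl5 (0.42), Rpl13a (0.346), Rps15 (0.336), Rplp1 (0.303), Rpl22l1 (0.302), Rpl10 (0.291) and Rps27 (0.279). Rpl5, which binds 5S RNA and can hold back the p53 ligase Mdm2, was 0.897% of member UMIs in acinar cells and 0.63% in duct cells, and 0.252% to 0.4% elsewhere. Rpl13a, known for silencing translation after interferon, was 1.09% in acinar cells and 0.906% in duct cells against 0.368% to 0.653% elsewhere. Rps15 and Rplp1 likewise were highest in acinar cells, at 1.17% and 4.12%, with duct cells next at 0.983% and 2.97%.

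Of the 80 members, 22 had their highest share in acinar cells and 21 their lowest there. Erythroid cells had the lowest share of 18 members. Duct cells were next to acinar cells for Rpl5, Rpl13a, Rps15 and Rplp1, and the part of acinar RNA, at 8.23% enzyme UMIs, in the duct values was not tested.

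**Figure D3:**
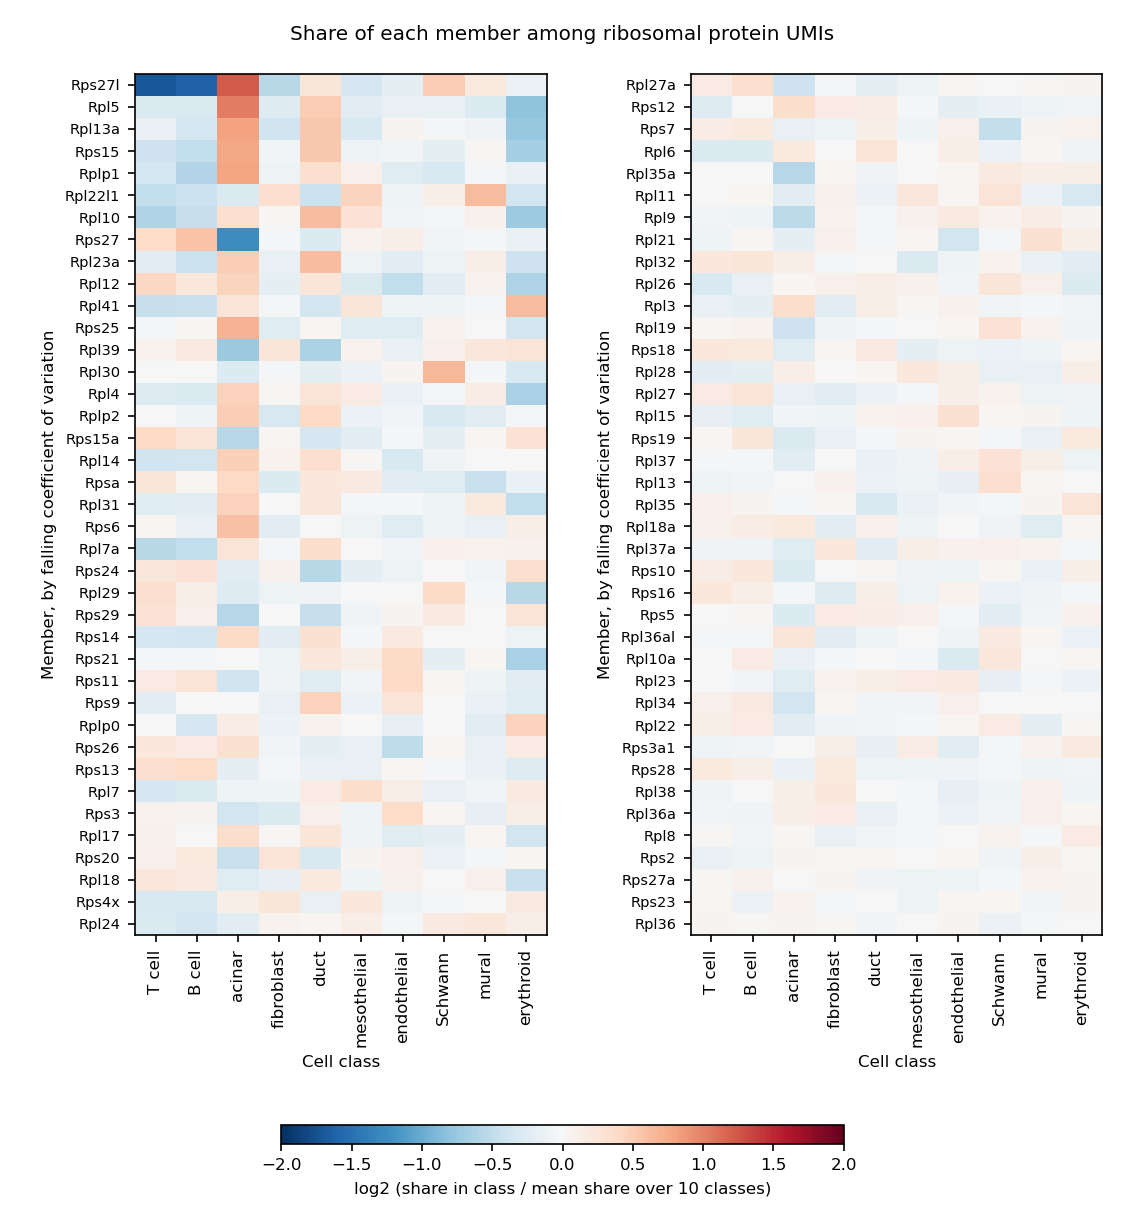
Share of each of 78 members among the summed ribosomal protein UMIs of a class, as the log2 of its ratio to the mean share over 10 classes (colour scale), with members in rows by falling coefficient of variation and classes in columns. Rps27l, Rpl5, Rpl13a, Rps15 and Rplp1 are above their mean in acinar cells and Rps27 is below, while the last rows of the right panel, such as Rpl36, are near 0 in all classes.

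The levels of the members went up and down together over the 10 classes. The correlation (Pearson, of log2 of CPM plus 10) of a member with the sum of the others had a median of 0.973. Without the erythroid class, which lay far from the rest, it was 0.938. T cells and B cells, at 28.0% and 22.8% members, also lay apart from the other classes, and both stayed in. The correlation was over 0.9 in 55 of 80 members without erythroid cells and under 0.5 in 1, Rps27l, at -0.32. Next came Rpl22l1 at 0.54 and Rpl10 at 0.62, and Rpl36 was highest at 0.996. Of the genes outside the set that were compared, the 10 closest to the summed members ranged from 0.986 down to 0.760 without erythroid cells. These are descriptions over 10 or 9 classes of 1 library that share a denominator.

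Among 163 genes outside the set with at least 50 UMIs in each class, Eef1b2, the exchange factor of translation elongation, followed the summed members most closely (r = 0.992, and 0.986 without erythroid cells). It stood at 1196 CPM in T cells, 680 CPM in acinar cells and 558 CPM in fibroblasts. Other genes close to them were Gas5, a host of small nucleolar RNAs with a TOP start of its own, at 0.949, Rack1 at 0.949, Naca at 0.944, Fau at 0.940, Atp5e at 0.921, Gm10076 at 0.919, Btf3 at 0.909 and Sub1 at 0.90. Rack1 and Fau encode ribosome parts outside the symbol rule, and Naca and Btf3 form the complex that meets new chains at the ribosome. Without erythroid cells Fau was at 0.887 and Btf3 at 0.703.

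In T cells against fibroblasts, nearly the whole set was higher. A feature was measured when it had at least 50 UMIs over both classes and called at a ratio of at least 1.5 or, for lower, at most 0.667. Of the 83 members measured, 69 were higher by at least 1.5-fold and 0 lower, against 28.7% of 12590 features called higher and 38.7% called lower. The ratio of the summed members was 1.88 (1.87 to 1.88), and the median member was at 1.84, where the median feature was at 0.938. Rpl39l, Rpl3l and Rpl10l had too few UMIs in this and the 4 other comparisons.

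The stalk proteins, which recruit elongation factors, summed to a ratio of 1.90, the small subunit to 1.99 and the large subunit to 1.79. The highest members were Rpl12, which forms the base of the stalk, at 2930 against 1031 CPM (ratio 2.84, 2.76 to 2.92), Rpsa, also known as the laminin receptor, at 4345 against 1620 CPM (2.68, 2.62 to 2.74), Rps16 (2.61, 2.55 to 2.67) and Rpl29 (2.53, 2.41 to 2.66). The lowest were Rps27l (0.854, 0.787 to 0.926), the only member below 1, Rpl22l1 (1.06, 1.01 to 1.11), Rpl10 (1.2, 1.16 to 1.25) and Rps19bp1 (1.23, 0.955 to 1.56, from 78 and 564 UMIs). Rps27l and Rpl22l1 thus lay at the low end of a comparison in which the genes they resemble, Rps27 and Rpl22, were at 2.46 and 2.16. This did not hold for the other copies measured, Rpl36al (891 against 415 CPM) and Rps27rt (93.2 against 41.7 CPM).

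Other lists of the translation machinery were read against the same 28.7% of all features called higher. Of ribosome parts outside the rule, Fau was at 2.34 and Rack1 at 1.89. Of 23 ribosome biogenesis genes 19 were higher by at least 1.5-fold, among them the box C/D factor Nop56 (4.12, 3.48 to 4.86), the pseudouridine synthase Dkc1 (3.72) and nucleolin, Ncl (2.64), and of 78 mitochondrial ribosome genes 30 were higher and 2 lower. Among 16 translation factors 7 were higher and 0 lower, while Eef1a1, which brings aminoacyl-tRNA to the ribosome, was at 3944 against 3753 CPM (1.05), and the initiation factors Eif4b (0.920) and Eif4a2 (0.822) were below 1.

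Acinar cells and fibroblasts were close in their summed members under the main settings and differed in single members. The ratio of the summed members was 1.05 (1.05 to 1.06) on UMIs outside enzymes, 0.625 on all UMIs and 0.966 with only the acinar cells of high Malat1. It was 1.23 with the study's upper limit of 10000 UMIs and 1.25 without more acinar products, so its size and direction depended on these settings. Of 83 members, 15 were higher and 3 lower by at least 1.5-fold, against 24.7% and 34.4% of 13138 features. Above 1 were 47 members and below 1 were 36, with a median of 1.04. Of all features 5930 were above 1 and 7208 below, with a median of 0.922.

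The members higher in acinar cells were Rps27l (3.6, 3.49 to 3.71), Rpl5 at 1410 against 550 CPM (2.56, 2.50 to 2.63), Rpl13a at 1713 against 706 CPM (2.43, 2.37 to 2.49) and Rps25, which is needed for some internal ribosome entry sites, at 1353 against 670 CPM (2.02, 1.97 to 2.07). Below these 4 were, among others, Rplp1 (1.95), Rps15 (1.88), Rplp2 (1.85), Rps6, the substrate of the S6 kinases (1.84), Rpsa (1.67), Rpl23a, Rpl12, Rpl7l1, Rps14 and Rpl3 (1.55). The stalk proteins as a group summed to 1.74, from 6955 CPM in fibroblasts, while the large subunit was at 1.03 and the small subunit at 1.00. Of the 3 stalk proteins 2 were called higher, and Rplp0, at 1.27, was not. The lower members were Rps27 (0.45, 0.440 to 0.459), Rpl39 at 2022 against 3782 CPM (0.535, 0.525 to 0.544) and Rps20, of the head of the small subunit, at 2296 against 3554 CPM (0.646, 0.635 to 0.657), followed by Rpl22l1 (0.685, 0.663 to 0.708).

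On all UMIs, where every ratio of this comparison is smaller by the same factor, 2 members were higher and 48 of 83 lower, against 12.3% of all features called higher and 61.8% called lower on that scale. The median member was then at 0.616 and the median feature at 0.546. The order of the members does not depend on that choice, and Rps27l stood above and Rps27 below all others on either scale. Other lists were counted only on UMIs outside enzymes, where 24.7% of all features were called higher and 34.4% lower. On that scale Fau was at 0.721 and Rack1 at 1.79, on opposite sides of 1. Of 23 ribosome biogenesis genes 9 were higher in acinar cells and 0 lower, with Nolc1 at 2.64, Bop1 at 2.54 and Nop56 at 2.53. Of 16 translation factors 6 were higher, among them Eif5a (2.00), Eef1g (1.89) and Tpt1 (1.55). Of 78 mitochondrial ribosome genes 13 were higher and 6 lower, a smaller share in either direction than the 24.7% and 34.4% of all features.

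**Figure D4:**
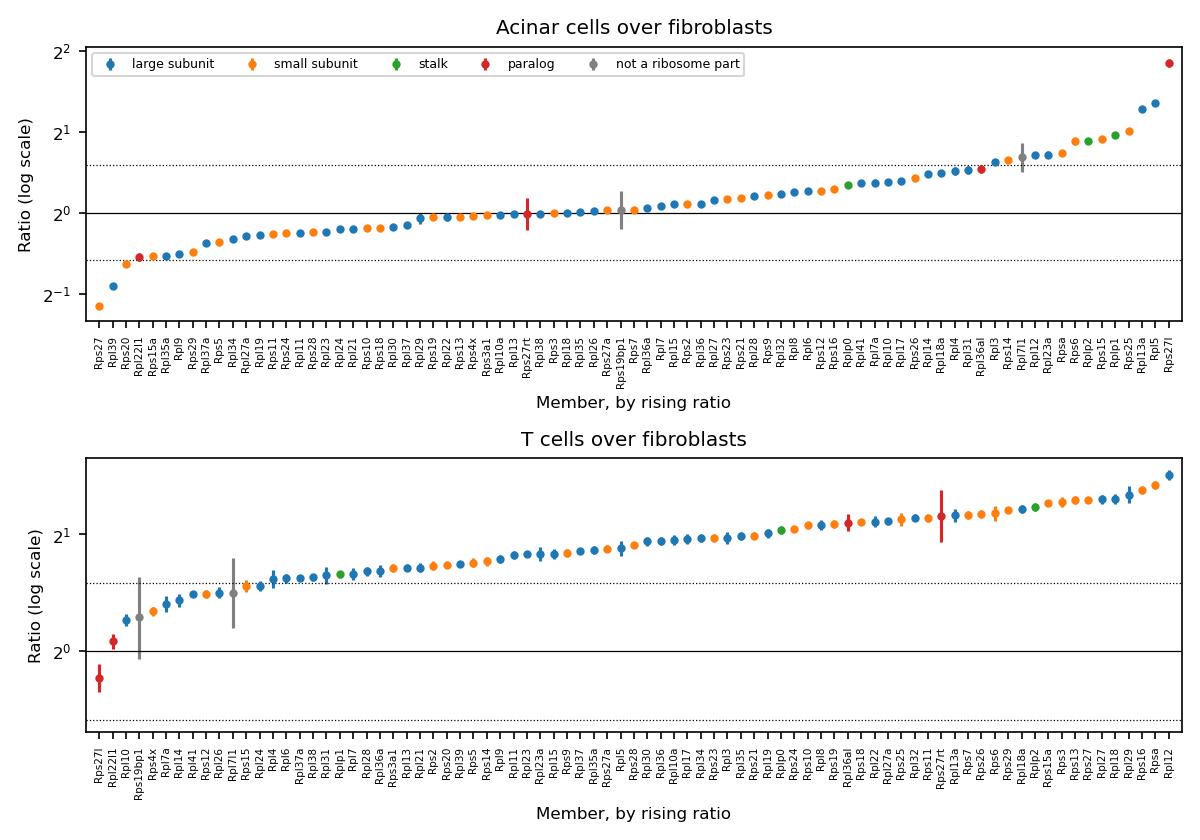
Ratio of the level of each of 81 measured members in acinar cells (upper panel) and in T cells (lower panel) to that in fibroblasts, on a log axis, with members by rising ratio, colours by role and bars for the exact 95% interval of the counts. Dotted lines mark 1.5-fold in either direction. Most members lie above the upper dotted line in T cells, while in acinar cells they lie on both sides of 1, from Rps27 at 0.45 to Rps27l at 3.6.

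B cells were below T cells in nearly all members. The ratio of the sums was 0.814 (0.810 to 0.819). All 83 ratios were below 1, as were 3490 of all 6854 features. By 1.5-fold 0 members were higher and 1 lower, against 16.6% and 17.1% of features. The median feature was at 0.992. The stalk was lower than the large and small subunits, at 0.699 against 0.825 and 0.815 for the sums, with Rplp0 at 2462 against 3844 CPM (0.640, 0.608 to 0.675) and Rplp1 at 3620 against 5237 CPM (0.691, 0.662 to 0.722), followed by Rpl23a (0.704) and Rpl29 (0.705). The highest ratios were those of Rps12 (0.976, 0.932 to 1.02), Rps19bp1 (0.960, from 24 and 78 UMIs), Rps19 (0.939) and Rps9 (0.936), and the intervals of the first pair reached past 1. Of the related genes, Fau was at 1.05 and Eef1b2 at 0.715.

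Fibroblasts that passed the gate of proliferation markers had a lower share of members than the rest, 13.0% in 195 cells against 15.02% in 5473, a ratio of 0.868 (0.863 to 0.872). Of 83 members 77 were below 1, as were 6125 of all 12035 features, whose median was 0.992. Of the members 0 passed 1.5-fold in either direction, against 17.3% of features higher and 17.1% lower. The lowest were Rpl38 (0.698, 0.669 to 0.728), Rps27 (0.735), Rps28 (0.754) and Rpl11, a partner of Rpl5 in the 5S particle (0.765). Among the highest were Rps15 (1.10, 1.04 to 1.17), Rpsa (1.06) and Rpl13a (1.02, 0.946 to 1.09).

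The proliferating fibroblasts were deeper, with a median of 4271 against 2662 UMIs, and the member share of fibroblasts was lower in deeper cells. Within cells of 2500 to 10000 UMIs the ratio was 0.925 (0.918 to 0.931). Ribosome biogenesis genes summed to 1.09, but their median gene was at 0.922, with 11 genes above 1 and 12 below and with 3 higher and 5 lower by 1.5-fold. Mitochondrial ribosome genes summed to 1.13 with a median of 1.11. In T cells, members were 25.03% in the 85 proliferating cells and 28.7% in the 812 others. In B cells they were 23.3% in 33 proliferating cells and 22.7% in 327 others.

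Acinar cells were divided by Malat1, a long noncoding RNA that stays in the nucleus. In 587 cells with under 0.5% Malat1 members were 17.8% of UMIs outside enzymes, and in 401 cells above it 14.4%, a ratio of 1.24 (1.23 to 1.24). Of 83 members 82 were above 1, against 2969 of all 9882 features. Of the members 0 were past 1.5-fold in either direction, against 1.2% of features higher and 21.6% lower. The extremes were Rps27rt (1.42, 1.12 to 1.79), Rps24 (1.37), Rpl38 (1.36) and Rpl39 (1.35) at the upper end and Rpl7l1 (0.851, 0.690 to 1.05), Rpl4 (1.11), Rpsa (1.11) and Rps19bp1 (1.13, 0.855 to 1.5) at the lower. The median feature was at 0.852, and 3 of 23 ribosome biogenesis genes were lower, 0 higher.

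Members, Malat1, enzymes and depth moved together in this class. From acinar cells with up to 0.1% Malat1 to those over 1%, the member share went from 21.6% through 19.8%, 16.4% and 14.9% to 13.0%, enzymes from 52.4% to 34.6% of all UMIs, and the median depth from 3494 to 10452 UMIs. Among acinar cells of 2500 to 10000 UMIs alone the member share went from 21.9% to 14.6% over the same steps. Which of these measures the member share follows cannot be told apart here.

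By depth alone, acinar cells went from 18.1% at 800 to 1500 UMIs through 20.1% at 2500 to 5000 to 15.03% over 10000. The member share differed with depth in other classes too. Fibroblasts went from 16.4% at 800 to 1500 UMIs to 13.2% over 10000, mesothelial cells from 13.8% to 12.6%, T cells from 28.5% to 27.6% at 5000 to 10000, and B cells from 22.1% to 23.2% at 2500 to 5000. T cells exceeded fibroblasts in every range up to 10000 UMIs, and at 1500 to 3000 UMIs their ratio was 1.83 (1.82 to 1.84).

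**Figure D5:**
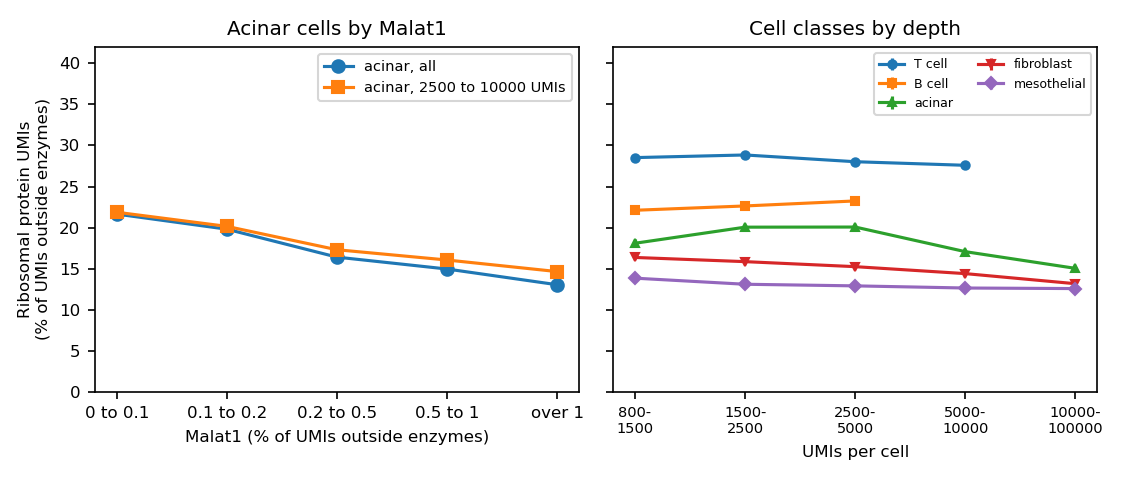
Ribosomal protein UMIs as a percentage of UMIs outside enzymes (vertical axis) by Malat1 share in acinar cells (left, all cells and those of 2500 to 10000 UMIs) and by UMIs per cell in 5 classes (right, bars for 95% Poisson intervals, smaller than most points). The acinar share goes from 21.6% at the lowest Malat1 to 13.0% at the highest. T cells, shown up to 10000 UMIs, lie above all other classes at each of their depths.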

How the data were processed

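The data were 1 droplet library. Per the file headers and the study's methods, reads were aligned to mm10 with Cell Ranger 7.1.0, and the authors deposited raw UMI counts for 11789 barcodes with at least 500 UMIs. The study removed ambient RNA in a later step, which the counts used here have not passed and which was not carried out here.

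Cells were assigned by minimum UMIs, genes and shares of marker genes. Acinar cells needed 20% enzyme UMIs, fibroblasts 2% and erythroid cells 10% of their markers, and the other classes 3 to 5 UMIs and 0.1%. Mural, mesothelial and Schwann cells that also passed the fibroblast gate stayed in their own class. A pass of the duct gate was ignored in cells that passed the acinar or mesothelial gate. Other cells that passed several of these gates were left out. Doublets of the combinations kept, or with too little of a class to pass its gate, thus stayed in the classes, and no doublet caller was run. The gates were revised once, because deep cells passed several of them on few stray UMIs. The first run had also displayed the member share of each class, which in acinar cells was higher than in the gates used. Those first gates are not among the other settings reported, so the ranges given do not cover them. The members and all gene lists were chosen with earlier results of these data known.

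UMIs were summed per class. Sums carried exact 95% Poisson intervals, shares Clopper-Pearson intervals and ratios exact conditional binomial intervals. Versions were Python 3.11.15, scipy 1.17.1, numpy 2.4.6, pandas 2.3.3 and matplotlib 3.10.9, and the ratio code was tested on simulated counts. With 1 library no test was made. Genes named are the paralog pairs, Rps19bp1, the 4 highest and 4 lowest ratios of each comparison, the 5 members with most and with fewest UMIs, the 8 most variable and the 10 genes outside the set most like it. Others were named after their values were seen, and a few genes that these rules pick are not reported here, by name or in the plots of single members. Promoters are from RefSeq, matched by symbol, and coordinates and coding sequences from GENCODE M21, matched for all 86 members. Other settings changed the limits on UMIs and mitochondrial share, the denominator, the weight of cells and the gates.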

Additional observations from a re-analysis of the deposited data

How the results depend on the processing

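Ratios of the summed members were recomputed under 8 other settings and, chosen after seeing the data, 4 more. T cells stayed above fibroblasts (1.83 to 1.94), B cells below T cells (0.792 to 0.827), proliferating fibroblasts below the others (0.816 to 0.925) and acinar cells low in Malat1 above those high in it (1.11 to 1.31) in all settings run. Acinar cells against fibroblasts turned around to 0.625 with all UMIs in the denominator and to 0.966 with only acinar cells high in Malat1, and ranged up to 1.25 otherwise. The first of these settings changed only the denominator, of which enzymes were 41.3% in acinar cells and 0.928% in fibroblasts. The cause of the difference between acinar cells high and low in Malat1 was not tested. No paired analysis was possible because there was 1 library.

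In the order acinar against fibroblast, T cell against fibroblast, B cell against T cell, proliferating against other fibroblasts and low against high Malat1, leaving out values that moved less than the counting error, the ratios were as follows. With an upper limit of 10000 UMIs, the limit the study used, they were 1.23, 1.87, 0.898 (fibroblasts) and 1.28 (Malat1). With a lower limit of 1500 UMIs they were 1.06, 0.827 (B cell) and 0.873 (fibroblasts). With a mitochondrial limit of 5% they were 1.07, 1.89, 0.805 and 1.23 (Malat1). With all UMIs the Malat1 ratio was 1.11. Without further secreted acinar proteins they were 1.19 and 1.28 (Malat1), and without mitochondrial UMIs 1.07, 1.90 and 0.820. As means of per-cell shares they were 1.17, 1.84, 0.792, 0.857 and 1.29, and with gate minimums doubled 1.17, 1.94, 0.827, 0.816 and 1.22. Of those added, leaving out more acinar products gave 1.25 and 1.30 (Malat1), cells of 2500 to 10000 UMIs gave 0.925 (fibroblasts) and 1.31 (Malat1), and cells of 1500 to 3000 UMIs gave 1.83 (T cell) and 0.795 (B cell).

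Counts of members past 1.5-fold moved most for acinar cells against fibroblasts. With all UMIs they were 2 higher and 48 lower, where 12.3% and 61.8% of all features were called. They were 25 higher without more acinar products, 1 lower at the limit of 10000 UMIs and 8 lower with acinar cells high in Malat1. Between low and high Malat1 the counts became 11 higher at the limit of 10000 UMIs, 13 at 2500 to 10000 UMIs and 1 with gates doubled. B cells had 0 members lower at the limit of 1500 UMIs and 2 at the limit of 10000 and at 1500 to 3000 UMIs, and proliferating fibroblasts had 2 lower with gates doubled. Apart from the setting with all UMIs, the share over all features was not counted for these settings. The changed counts can therefore not be read as changes in the members.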
